A study of Mus musculus with 4 samples.

Results

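Integrins and cadherins are the main receptors by which a cell holds on to its matrix and to its neighbours, and 33 of their genes were followed across 4 treatments of mouse primary osteoblasts. The genes, 21 integrin chains and 12 cadherins, were chosen by family with earlier results of these data known, and are part of these families. Every non-control probe that the array's design named for one of these genes was used. They were 33 of the 35080 gene or transcript names on the array and had 48 of its 55681 probes, and 20 of the 33 genes had 1 probe. The cells were treated for 72 h in medium with 10% FBS, with BMP2 at 200 ng/ml plus LOXL2 at 4 µg/ml, with BMP2 alone, with LOXL2 alone, or with neither protein (untreated). BMP2 is a bone morphogenetic protein, a secreted signal that drives bone and cartilage formation, and LOXL2 is a lysyl oxidase-like enzyme, a family that cross-links collagen. Every treatment had a single array and thus no replicate. Whether the cells came from 1 preparation or several is not given in the labels, which enter the cell type as osteoblasts where BMP2 was added and as pre-osteoblasts where it was not.

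An integrin is a pair of an alpha and a beta chain that spans the membrane, binds collagen, laminin, fibronectin or another ligand outside the cell, and is linked to actin inside it through adaptors such as talin and kindlin. The alpha chain largely sets the ligand, and Itgb1 is the beta chain that most matrix-binding alpha chains share. Classical cadherins bind the same cadherin on the next cell in the presence of calcium, and their tails hold the catenins. Bone-forming cells are known for collagen and fibronectin receptors, for the neural cadherin Cdh2 and for the osteoblast cadherin Cdh11.

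Each level rests on a short probe sequence, and the probes below show what was measured for 5 of the genes. Positions are on the mouse build mm9 as the array's design gives them. The Itga1 probe lies at chr13:115756765-115758419 on the minus strand. Its 60 bases span 1655 bases of the genome, so it crosses an exon junction, and no letter is capitalised. The Itga2 probe lies at chr13:115626714-115626773 on the minus strand, in coding sequence, and the capitals are the codons of the membrane-proximal motif that integrin alpha tails share.
Itga1: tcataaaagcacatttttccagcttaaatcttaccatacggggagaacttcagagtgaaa
Itga2: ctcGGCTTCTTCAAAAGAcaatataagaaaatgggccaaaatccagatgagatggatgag
The Itgb1 probe reports the shared beta chain at chr8:131250081-131255976 on the plus strand, and it too crosses an exon junction. Its capitals are the codons of 2 short tail motifs to which adaptors bind.
Itgb1: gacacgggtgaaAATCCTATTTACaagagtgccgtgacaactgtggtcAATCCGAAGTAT
The probes of Cdh6, at chr15:12963981-12964040 on the minus strand, and of Cdh10, at chr15:18943342-18943401 on the plus strand, report the same part of the tail of these type II cadherins. The capitals are a stretch of codons that the classical cadherin tail keeps.
Cdh6: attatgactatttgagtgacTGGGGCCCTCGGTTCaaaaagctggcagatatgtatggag
Cdh10: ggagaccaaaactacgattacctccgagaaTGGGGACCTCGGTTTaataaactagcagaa
Aligned on the capitals, the Cdh6 and Cdh10 probes were identical at 35 of 50 bases (70.0%), which shows how closely probes of these related genes resemble each other. Cross-hybridisation between them was not tested.

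The share of spots well above background was 60.4% to 62.2% on the 4 arrays, and no spot was saturated. Levels below are spot intensities scaled so that the 4 arrays share 1 upper-quartile (75th percentile) intensity. They compare arrays for 1 probe and say nothing of one gene against another. Probes printed in 10 spots gave a median spread between spots of 0.064 to 0.067 log2 units (SD, 291 probes). Genes with a probe well above background on at least 2 arrays were tested in limma, with 1 term for BMP2 and 1 for LOXL2 and p-values adjusted over 24040 genes. A gene is said to have risen or fallen where that adjusted p is below 0.05. Of the 33 genes, 30 were tested, and 27 of them were well above background on all 4 arrays. The leukocyte chain Itgax and the epithelial and TGF-beta-activating chains Itgb6 and Itgb8 were not well above background on any array and were not tested. Of 10 osteoblast marker genes, 9 were well above background on at least 2 arrays, and the osteocyte gene Dmp1 was not.

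With BMP2, 10 of the 30 tested genes fell and 3 rose. The genes that fell were the matrix receptor chains Itga1, Itga2, Itga10, Itga3, Itga8 and Itga2b and the cadherins Cdh1, Cdh2, Cdh3 and Cdh5. Those that rose were Itga9, Itgb7 and Cdh22. Cdh1 was kept for testing only through the arrays without BMP2, where it was the higher. To be kept, Cdh22 needed an array with BMP2 and Itga2 an array without it, for each gene the side where it was higher. The 10 that fell and the 3 that rose are 33.3% and 10.0% of those tested, against 9.98% and 10.3% of all genes in the same fit. The list was chosen with earlier results of these data known. Of 18 other tested integrin and cadherin genes, 3 fell and 2 rose. At an unadjusted p below 0.05, 12 of the 30 were lower and 7 higher, against 19.6% and 23.3% of all genes. Their median BMP2 difference was -0.10 on the log2 scale, against 0.02 over all 24040 genes, and it was -0.10 in the integrins and in the cadherins alike. The fit has 1 residual degree of freedom. A gene's own error is how far the 2 pairs of arrays, BMP2+LOXL2 against LOXL2 and BMP2 against untreated, depart from each other. That error is pulled by limma towards a value shared over all genes, so genes with nearly equal pairs have much the same SE. In bulk RNA, fewer cells of a type and less RNA per cell cannot be told apart. When dim probes were also tested, no gene on the array kept an adjusted p below 0.05, and the smallest among these genes was 0.0900.

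**Figure D1:**
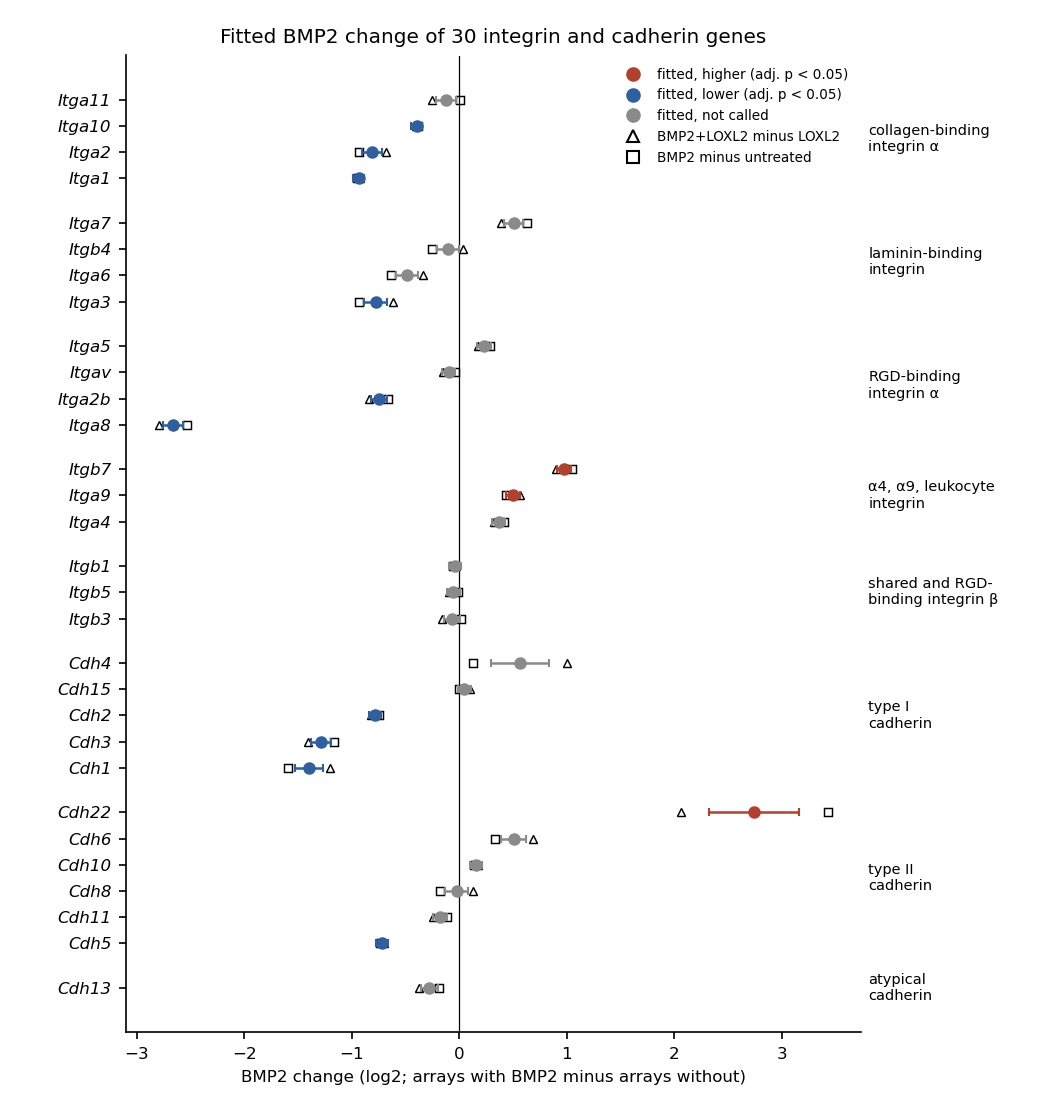
BMP2 change of the 30 tested genes on the log2 scale, by family, with arrays with BMP2 set against arrays without. Filled points are the fitted change with its standard error (colour marks adjusted p below 0.05), open triangles are BMP2+LOXL2 minus LOXL2 and open squares BMP2 minus untreated. Itga8 lies lowest at -2.66 and Cdh22 highest at 2.74. The values of Cdh1, Cdh22 and Itga2 include signals not above background, so they are not measured folds.

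The collagen-binding alpha chains were the integrin group with the most genes that fell, 3 of 4, and none rose. Their median BMP2 difference was -0.60. Itga1, a receptor of fibrillar and basement membrane collagens, measured 160 in BMP2+LOXL2 cells and 152 in BMP2 cells, against 303 in LOXL2 cells and 294 in untreated cells. Both arrays with BMP2 lay well below both without it, and the fitted difference was -0.94 ± 0.05 (SE, limma adjusted p = 0.0228), 1.91-fold lower. A second Itga1 probe, in another part of the transcript, measured 42.2 and 68.9 in BMP2+LOXL2 and BMP2 cells, against 61.8 and 80.0 in LOXL2 and untreated cells, and differed by -0.38. For that probe the BMP2 array lay above the LOXL2 array, so its groups overlapped.

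Itga10, a collagen receptor chain best known from cartilage, was bright on every array. It measured 13491 in BMP2+LOXL2 cells and 12159 in BMP2 cells, against 17867 in LOXL2 cells and 15901 in untreated cells. The arrays with BMP2 were lower by a modest 1.32-fold (-0.40 ± 0.05, SE, limma adjusted p = 0.0426), the smallest change among the genes that fell. A second probe that shares 54 bases with the first gave -0.34, so it adds little that is independent, and with the mean over the 2 probes Itga10 was no longer called, nor without a LOXL2 term in the fit. Chondrocyte markers moved the other way in the same arrays, with 8 of 10 rising, none falling and a median of 2.35. This count and the marker counts below stand against 10.3% of all genes that rose and 9.98% that fell. The summed intensity of the chondrocyte markers was 282151 and 190855 in BMP2+LOXL2 and BMP2 cells, against 58194 and 50795 in LOXL2 and untreated cells. Col2a1 was the largest part (181437 and 117914, against 32500 and 27535). All 10 chondrocyte markers had a probe well above background on at least 2 arrays. Matn1, among the 8 that rose, was not well above background in LOXL2 cells (5.76) or untreated cells (3.61). It passed the filter only through the arrays with BMP2, which favoured a rise. The part of the chondrocyte markers in the level of Itga10 was not tested.

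Itga2, a collagen receptor chain of platelets and epithelium, was near the detection limit. It measured 14.8 in BMP2+LOXL2 cells and 11.4 in BMP2 cells, against 23.8 in LOXL2 cells and 21.8 in untreated cells, and the BMP2 array was not well above background. The fitted difference was -0.81 ± 0.09 (SE, limma adjusted p = 0.0367), and BMP2 cells were at least 1.50-fold lower than untreated cells. With a background correction that pulls dim signals together (normexp), the difference was -0.19 and kept its call (limma adjusted p = 0.0475). The call was lost with a variance trend and robust errors in limma. Itga11, a receptor of fibrillar collagen in mesenchymal cells, did not follow the other 3. It measured 41988 in BMP2+LOXL2 cells and 43794 in BMP2 cells, against 50043 in LOXL2 cells and 43722 in untreated cells, with a BMP2 difference of -0.13 ± 0.09 (SE, limma adjusted p = 0.39). The BMP2 array nearly equalled the untreated one, and the LOXL2 array was the highest.

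Of the 4 laminin-binding chains 1 fell and none rose, and their values went both ways. Itga3, a receptor chain for laminins of epithelial basement membranes, measured 113 in BMP2+LOXL2 cells and 88.6 in BMP2 cells, against 173 in LOXL2 cells and 169 in untreated cells. Its arrays with BMP2 were lower by 1.71-fold (-0.78 ± 0.11, SE, limma adjusted p = 0.0446), a call that was lost with quantile normalization. Itga6, which pairs with Itgb1 or Itgb4 to bind laminin, measured 5107 and 4647 in BMP2+LOXL2 and BMP2 cells, against 6474 and 7203 in LOXL2 and untreated cells (-0.49 ± 0.10, SE, limma adjusted p = 0.0721). Its groups did not overlap but it missed the threshold, and a second probe differed by -0.08. Itga7, the laminin receptor chain of muscle, measured 806 and 772 in BMP2+LOXL2 and BMP2 cells, against 618 and 500 in LOXL2 and untreated cells (0.51 ± 0.09, SE, limma adjusted p = 0.0582). Both arrays with BMP2 were the higher ones. Itgb4, the hemidesmosome beta chain, differed by -0.11 ± 0.10 (SE, limma adjusted p = 0.485), with intensities of 341 to 407 over the 4 arrays. Skeletal muscle markers had 0 of 6 tested genes that rose and 2 that fell. Myf5, Pax7, Ckm and Mylpf had no probe well above background on at least 2 arrays.

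Among the chains that bind the RGD motif of fibronectin, vitronectin and bone matrix proteins, 2 of 4 fell and none rose. The fall of Itga8 was the largest in the integrins. Itga8, a chain that pairs with Itgb1 and binds nephronectin, measured 352 in BMP2+LOXL2 cells and 400 in BMP2 cells, against 2434 in LOXL2 cells and 2316 in untreated cells. The 2 arrays with BMP2 were close to each other and far below the others, at 6.32-fold lower (-2.66 ± 0.09, SE, limma adjusted p = 0.0206). Npnt, the nephronectin gene, fell as well; it was picked out after its values were seen. It measured 96.4 in BMP2+LOXL2 cells and 110 in BMP2 cells, against 272 in LOXL2 cells and 244 in untreated cells (-1.32 ± 0.12, SE, limma adjusted p = 0.0295).

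Itga2b, the alpha chain of the platelet fibrinogen receptor, was dim and measured 35.0 in BMP2+LOXL2 cells and 38.2 in BMP2 cells, against 62.7 in LOXL2 cells and 60.3 in untreated cells. It was lower on both arrays with BMP2, by 1.68-fold (-0.75 ± 0.08, SE, limma adjusted p = 0.0328), or by -0.34 on the log2 scale with the normexp correction. Of 4 tested megakaryocyte and platelet markers 3 fell, with a median of -0.96, and Gp1bb differed by 0.26 without a call. Gp9, Gp1ba, Gp5 and Gp6 had no probe well above background on at least 2 arrays. The platelet chemokine gene Ppbp, 1 of the 3, was at least 5.38-fold lower with BMP2. It was kept only through the arrays without BMP2, which favoured a fall. The part of such cells in the Itga2b level was not tested.

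The fibronectin receptor chain Itga5 and the broadly used chain Itgav did not pass the test. Itga5 measured 1268 and 1298 in BMP2+LOXL2 and BMP2 cells, against 1123 and 1066 in LOXL2 and untreated cells (0.23 ± 0.06, SE, limma adjusted p = 0.101). Itgav measured 1363 and 1426 in BMP2+LOXL2 and BMP2 cells, against 1512 and 1471 in LOXL2 and untreated cells (-0.10 ± 0.06, SE, limma adjusted p = 0.327). Each kept its groups apart, but by small margins, 1.17-fold for Itga5 and 1.07-fold for Itgav.

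The beta chains Itgb1, Itgb3 and Itgb5 stood near 0 with BMP2, while several of the alpha chains that pair with Itgb1 fell. Itgb1 measured 8565 in BMP2+LOXL2 cells and 8510 in BMP2 cells, against 8734 in LOXL2 cells and 8843 in untreated cells, a difference of -0.04 ± 0.05 (SE, limma adjusted p = 0.596) that became 0.01 with median centring, which adds 0.05 to the BMP2 difference of all genes. A second Itgb1 probe differed by -0.22. Itgb3, the partner of Itgav and Itga2b, measured 2045 and 2253 in BMP2+LOXL2 and BMP2 cells, against 2283 and 2223 in LOXL2 and untreated cells (-0.07 ± 0.07, SE, limma adjusted p = 0.535). Its groups overlapped, since BMP2 cells were above untreated cells. Itgb5, another Itgav partner, differed by -0.06 ± 0.06 (SE, limma adjusted p = 0.524), with intensities of 57984 to 62072 over the 4 arrays. Whether the alpha chains differed from these beta chains was not tested as such.

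The 3 tested chains of the group of Itga4, Itga9 and the leukocyte integrins were all higher with BMP2, and 2 of them rose. Itgb7, the beta partner of Itga4 in lymphocyte homing, measured 401 in BMP2+LOXL2 cells and 396 in BMP2 cells, against 215 in LOXL2 cells and 192 in untreated cells. The arrays with BMP2 were higher by 1.96-fold (0.97 ± 0.07, SE, limma adjusted p = 0.0258). Itga9, a receptor chain for tenascin and osteopontin, measured 2350 in BMP2+LOXL2 cells and 2129 in BMP2 cells, against 1586 in LOXL2 cells and 1579 in untreated cells. It was higher on both arrays with BMP2, by 1.41-fold (0.50 ± 0.07, SE, limma adjusted p = 0.0429). Itga4, a receptor chain for fibronectin and Vcam1, measured 213 and 182 in BMP2+LOXL2 and BMP2 cells, against 171 and 137 in LOXL2 and untreated cells (0.37 ± 0.06, SE, limma adjusted p = 0.052). Its groups did not overlap and it just missed the threshold, which it passed in 5 of 9 alternative analyses. Leukocyte markers were lower in the same arrays. None of 14 tested rose and 6 fell, and the summed intensity was 9571 and 10015 in BMP2+LOXL2 and BMP2 cells, against 11769 and 12685 in LOXL2 and untreated cells. Csf1r, which was not called, was the largest part of that sum (5464 and 5474, against 6132 and 6654).

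**Figure D2:**
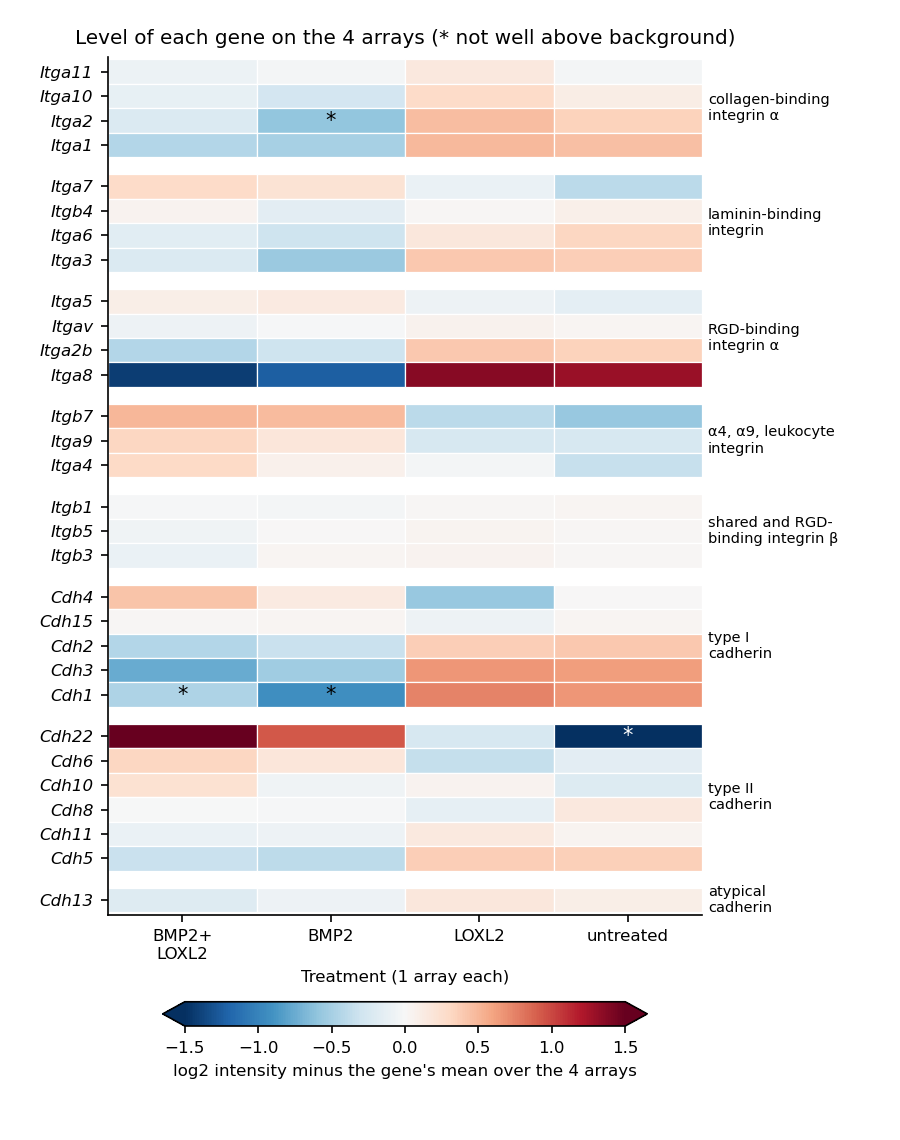
Level of the 30 tested genes on each of the 4 arrays, as log2 intensity minus that gene's mean over the arrays (blue lower, red higher, scale capped at 1.5). Columns are the treatments, with 1 array each, and an asterisk marks a signal not well above background. Itga8, Cdh1, Cdh3 and Cdh2 are blue in both columns with BMP2 and red in both without, and the Itgb1, Itgb3 and Itgb5 rows are nearly blank.

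The type I cadherins had 3 of 5 genes that fell and none that rose, with a median BMP2 difference of -0.78. Cdh2, the neural cadherin of osteoblasts and other mesenchymal cells, measured 7813 in BMP2+LOXL2 cells and 8411 in BMP2 cells, against 13778 in LOXL2 cells and 14108 in untreated cells. Both arrays with BMP2 were lower, by 1.72-fold (-0.78 ± 0.06, SE, limma adjusted p = 0.0261), and a second Cdh2 probe gave -0.82. Cdh3, the placental cadherin, measured 340 in BMP2+LOXL2 cells and 395 in BMP2 cells, against 903 in LOXL2 cells and 885 in untreated cells. It was lower in both pairs, by 2.44-fold (-1.29 ± 0.09, SE, limma adjusted p = 0.026).

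Cdh1, the epithelial cadherin, was measured in 10 spots per array and was well above background only without BMP2. It measured 13.5 in BMP2+LOXL2 cells and 9.75 in BMP2 cells, against 31.1 in LOXL2 cells and 29.4 in untreated cells. The 2 arrays with BMP2 had a bound only, so Cdh1 was at least 2.09-fold lower with BMP2. The bound was 2.18-fold in the pair with LOXL2 and 2.01-fold in the pair without. Cdh1 passed the filter only through the arrays without BMP2, which favoured a lower value with BMP2. Cdh1 was called (limma adjusted p = 0.0303) on 2 signals not well above background, so the call is no separate support. With the authors' deposited value table in place of the scanner signals it missed the threshold, and with the normexp correction its fitted difference was -0.33. The spread between its spots was 0.152 to 0.408 log2 units (SD). Of 7 tested epithelial markers 1 fell, Krt19 (-1.10), and none rose. Epcam, Cldn3 and Grhl2 had no probe well above background on at least 2 arrays. The summed intensity of the epithelial markers was 768 and 782 in BMP2+LOXL2 and BMP2 cells, against 1017 and 1035 in LOXL2 and untreated cells. Most of that difference was the single gene Krt19 (197 and 205, against 441 and 422). The part of epithelial cells in the Cdh1 level was not tested.

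Cdh4, the retinal cadherin, differed between the pairs. It measured 49.5 in BMP2+LOXL2 cells and 40.3 in BMP2 cells, against 24.7 in LOXL2 cells and 37.0 in untreated cells. The array with both proteins was the highest and the LOXL2 array the lowest, and the fitted BMP2 difference was 0.56 ± 0.27 (SE, limma adjusted p = 0.234). In the pair without LOXL2 it was 0.13. The larger difference in the pair with LOXL2 could not be tested against that with 1 array per treatment. A second Cdh4 probe gave a fitted difference of 0.12, with -0.13 in the pair without LOXL2 and 0.37 in the pair with it. Cdh15, the muscle cadherin, differed by 0.05 ± 0.06 (SE, limma adjusted p = 0.607), with 72.2 to 77.7 on the 4 arrays.

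The type II cadherins split, with 1 gene of 6 that rose, 1 that fell and a median of 0.07. Cdh22 measured 122 in BMP2+LOXL2 cells and 66.8 in BMP2 cells, against 29.4 in LOXL2 cells and 6.23 in untreated cells. The untreated array was the only one not well above background, and each protein went with a higher level. Cdh22 needed an array with BMP2 to pass the filter, which favoured a rise. The fitted BMP2 difference was 2.74 ± 0.42 (SE, limma adjusted p = 0.0491), and BMP2 cells were at least 4.72-fold higher than untreated cells. In the pair with LOXL2, where both arrays were above background, the difference was 2.06. Cdh22 was the least stable of the calls. It passed in 3 of 8 alternative analyses, and with the normexp correction its difference was 0.96.

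Cdh5, the vascular endothelial cadherin, measured 80.7 in BMP2+LOXL2 cells and 77.6 in BMP2 cells, against 131 in LOXL2 cells and 130 in untreated cells. Arrays of the same BMP2 setting were nearly equal, and those with BMP2 were lower by 1.65-fold (-0.72 ± 0.05, SE, limma adjusted p = 0.0263), or by -0.44 on the log2 scale with the normexp correction. Endothelial markers went both ways. Of 7 tested, Erg (-1.38) was among the 2 that fell and Vwf (1.89) among the 2 that rose (with normexp, -0.85 for Erg and 0.87 for Vwf). Tie1, Emcn and Cldn5 had no probe well above background on at least 2 arrays. The summed intensity of the endothelial markers was 24596 and 25693 in BMP2+LOXL2 and BMP2 cells, against 24539 and 25150 in LOXL2 and untreated cells. Most of that sum was the single gene Kdr (21267 and 22312 in BMP2+LOXL2 and BMP2 cells, against 21897 and 22560 in LOXL2 and untreated cells), so it says little of the other markers. Their part in the Cdh5 level was not tested.

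Cdh11, the osteoblast cadherin, measured 15477 in BMP2+LOXL2 cells and 15691 in BMP2 cells, against 18289 in LOXL2 cells and 17011 in untreated cells. Its arrays with BMP2 were lower by a small margin that missed the threshold (-0.18 ± 0.06, SE, limma adjusted p = 0.155), and a second probe gave -0.26. Cdh6, the kidney cadherin, measured 297 and 268 in BMP2+LOXL2 and BMP2 cells, against 185 and 213 in LOXL2 and untreated cells (0.51 ± 0.12, SE, limma adjusted p = 0.0829). Its groups did not overlap. Cdh10, whose probe resembles that of Cdh6, differed by 0.15 ± 0.05 (SE, limma adjusted p = 0.146), and Cdh8 by -0.02 ± 0.11 (SE, limma adjusted p = 0.883) or 0.03 with the same shift by median centring. Cdh13, the atypical cadherin held to the membrane by a lipid anchor, measured 1379 and 1497 in BMP2+LOXL2 and BMP2 cells, against 1787 and 1702 in LOXL2 and untreated cells (-0.28 ± 0.08, SE, limma adjusted p = 0.105).

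The 2 pairs of arrays that make up the BMP2 comparison share no array. Of the 30 genes, 25 had the same sign in both pairs, and over all genes 79.4% did. The 13 that rose or fell are among the 25, which adds no support, since the error of the fit includes the departure between these same pairs. A change of 2-fold or more in both pairs was seen for 1 gene that was higher, Cdh22, and for 3 that were lower, Itga8, Cdh1 and Cdh3. Over all genes these shares were 2.06% and 2.74%. The bounds of Cdh1 stay above 2-fold in both pairs, though it was kept only through the arrays without BMP2. Cdh22 needed an array with BMP2 to be kept. The 10 smallest fitted differences, under 0.2 in size, took in Itgb1, Itgb3, Itgb5, Itgav, Itga11 and Cdh11, and 49.1% of all genes lay under that size. The 9 genes with more than 1 usable probe gave the same sign of the fitted difference with each. Within single pairs the probes of Cdh4 differed in sign without LOXL2 (0.13 and -0.13). Those of Itga6 did so with LOXL2 (-0.34 and 0.02).

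**Figure D3:**
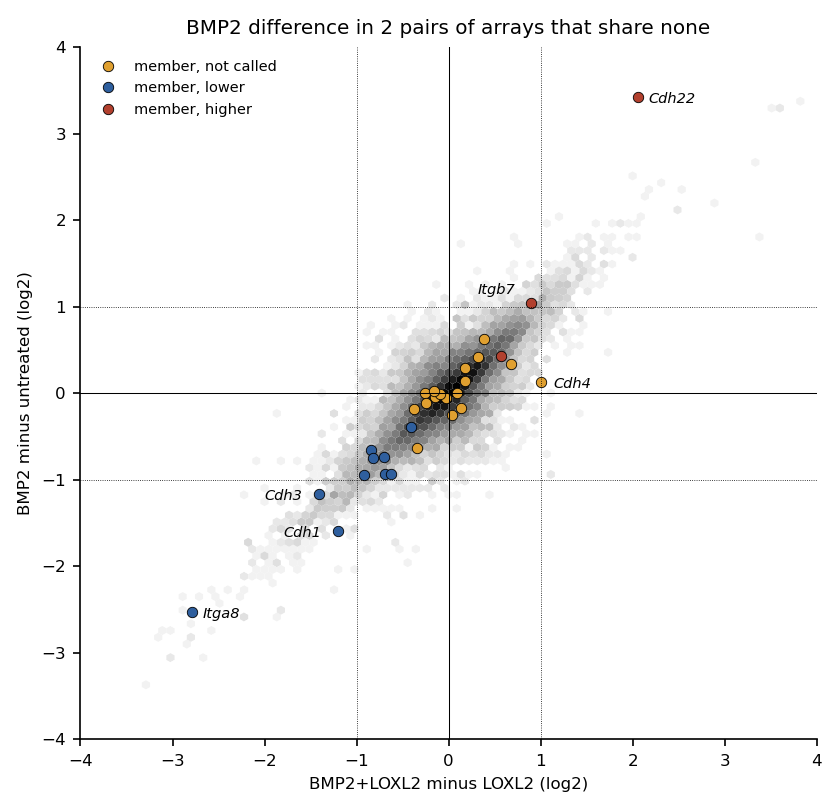
BMP2 difference on the log2 scale in the pair with LOXL2 (BMP2+LOXL2 minus LOXL2, horizontal) and in the pair without it (BMP2 minus untreated, vertical). Coloured points are the 30 tested genes, grey shading the density of all 24040 genes, and dotted lines mark a 2-fold difference. Itga8, Cdh1 and Cdh3 lie beyond 2-fold on the low side in both pairs and Cdh22 on the high side, while Cdh4 is high only in the pair with LOXL2.

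LOXL2 gave no call. No gene on the array had a limma adjusted p below 0.05 for LOXL2, a share of 0.00% in each direction, and the smallest was 0.480. At an unadjusted p below 0.05, 1486 of all genes differed, and limma with a variance trend and robust errors called 14 genes, none of them an integrin or cadherin followed here. Of the 30 genes, 29 had a fitted LOXL2 difference under 0.3 in size, against 92.8% of all genes. The sign was the same in both pairs for 14 genes, 12 of them higher and 2 lower, a share near the 54.9% of all genes.

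The 3 genes with an unadjusted p below 0.05 for LOXL2 were all higher and none was lower, against 2.82% and 3.37% of all genes, and each had an adjusted p of 0.79. Itga4 was higher by 0.27 ± 0.06 (SE), at 0.23 with BMP2 (213 in BMP2+LOXL2 cells, against 182 in BMP2 cells) and 0.32 without it (171 in LOXL2 cells, against 137 in untreated cells). Cdh10 was higher by 0.27 ± 0.05 (SE), with 61.9 in BMP2+LOXL2 cells against 50.5 in BMP2 cells, and 54.9 in LOXL2 cells against 46.0 in untreated cells. In both genes the LOXL2 array of each pair was the higher one, by a small step. Cdh22 was higher by 1.56 ± 0.42 (SE), and LOXL2 cells were at least 2.07-fold higher than untreated cells. With BMP2 present its LOXL2 difference was 0.87. The collagen-binding chains, whose ligand LOXL2 cross-links, had LOXL2 differences of 0.05 to 0.25, and none passed the test.

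**Figure D4:**
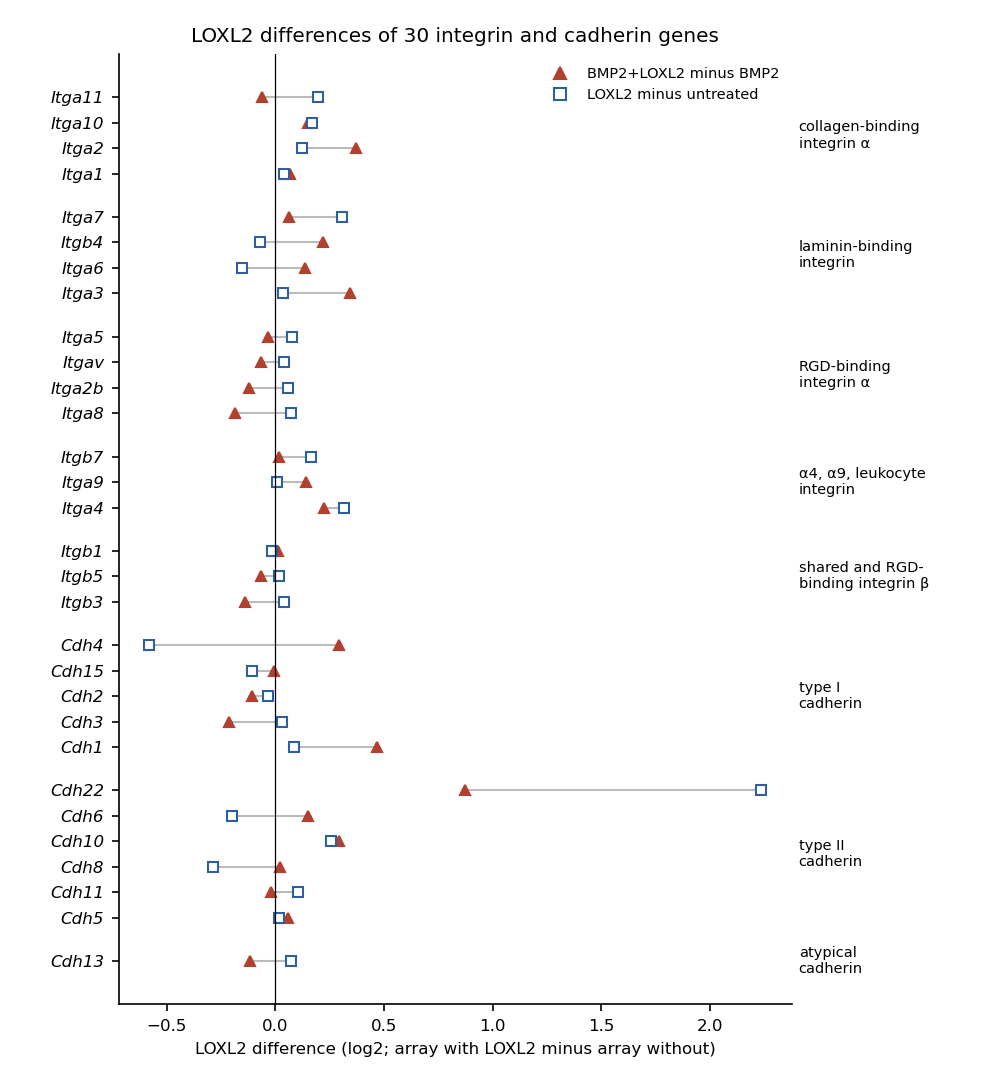
LOXL2 difference of the 30 tested genes on the log2 scale, by family. Triangles are BMP2+LOXL2 minus BMP2 and open squares LOXL2 minus untreated, each from 1 pair of arrays. Most pairs of symbols lie close to 0 or on both sides of it, and Cdh22 stands apart at 0.87 and 2.24, where the untreated array was not above background.

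The molecules that these receptors bind or hold were read on the same arrays. Of 22 other integrin and cadherin genes, 18 were tested, and 2 rose and 3 fell with BMP2. These counts and those of the next 3 lists stand against 10.3% of all genes that rose and 9.98% that fell, and here they lie near those shares. Itgad and Itgal, partners of the leukocyte beta chain Itgb2, were the genes that rose. Itgad measured 34.9 in BMP2+LOXL2 cells and 30.3 in BMP2 cells, at least 2.41-fold higher than without BMP2. Signals in LOXL2 cells (9.70) and untreated cells (3.56) were not well above background. Itgad passed the filter only through the arrays with BMP2, which favoured a rise, so its call (limma adjusted p = 0.0498) is no separate support. Its call was lost with quantile normalization, with the mean over kept probes and with the deposited value table, and its fitted difference of 2.47 was 0.43 with normexp. Itgal was higher by 0.88 ± 0.05 (SE, limma adjusted p = 0.0242), but by 0.26 and without a call (limma adjusted p = 0.0836) when its kept probes were averaged. Itgbl1, a secreted relative of the beta chains, fell by 1.84 on the log2 scale, and Cdh18 fell by 0.85, a call that was lost with normexp (-0.23, limma adjusted p = 0.0568) and without a LOXL2 term.

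Among 31 tested integrin ligands 7 rose and 7 fell, with a median of 0.03. The RGD protein of bone Ibsp (2.53), the cartilage collagen Col2a1 (2.29) and the laminin chain Lama1 (2.21) rose, and the matricellular protein Ccn3 (-2.18) fell. Ibsp measured 14629 in BMP2+LOXL2 cells and 13835 in BMP2 cells, against 2144 in LOXL2 cells and 2845 in untreated cells. Both arrays with BMP2 were the higher ones. Of 23 tested adaptors and kinases that link integrins to actin, 1 rose and 6 fell, with a median of -0.28. Tensin Tns1 (-0.99), the parvin Parva (-0.69) and the PINCH adaptor Lims2 (-0.75) fell, and the second parvin Parvb (0.94) rose, though Parvb was 0.50 with normexp and lost its call with probe means. Of 15 tested catenins and junction adaptors, 1 rose and 5 fell, with a median of -0.15. The desmosomal plakophilin Pkp1 (2.18) rose, and the neural alpha-catenin Ctnna2 (-1.63), the delta-catenin Ctnnd2 (-1.58) and the catenin-like Ctnnal1 (-0.74) fell. Ctnnd2 was -0.94 with normexp, and Ctnnal1 lost its call with probe means. No gene in these 4 lists was called for LOXL2.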

How the data were processed

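Total RNA of 4 cultures was hybridised to 1-colour Agilent arrays (Cy3), 1 per treatment, on 1 slide per the file headers, so a treatment and its place on the slide cannot be told apart. Spot intensity values come from the authors' run of Feature Extraction (version 10.7.3.1 in the submitters' processing notes); the deposited value table holds a mean intensity per probe, equal within 0.1% to the scanner values for 99.5% of probes.

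Signals were put on the log2 scale, minus each array's 75th percentile. Control spots were left out, as were outlier spots among the others (109 to 144 per array). Spots of a probe were averaged, and each gene was represented by its brightest kept probe. Probe names were matched to RefSeq for 26762 of 55681 probes and kept from the file for the others; no member's symbol changed. Fits used limma 3.58.1 in R 4.3.3 (model with BMP2 and LOXL2 terms, 1 residual degree of freedom, Benjamini-Hochberg over 24040 genes). The fit was tested on simulated data. With no replicates, p-values rest on the departure of the 4 arrays from additivity, moderated by limma towards a variance shared over all genes. That shared variance had a weight of 1.72 prior degrees of freedom. No spread between replicates enters the p-values, and the number of arrays limits the precision. A fold bound sets the dim arrays at the lowest signal well above background on each. Beyond the members, the 4 genes with the largest called BMP2 change in each other list are named, as are Npnt and some cell type markers, picked after their values were seen. Members and lists were chosen with earlier results of these data known. Alternatives were quantile normalization, median centring, normexp, other filters, limma settings, probe means, the deposited table, a model without the other term and leaving out each array.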

Additional observations from a re-analysis of the deposited data

How the results depend on the processing

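The number of members that rose with BMP2 was 3 as reported, 5 with median centring, 6 with normexp, 7 with a variance trend and robust errors, and 0 with no filter on dim probes, where the number that fell was also 0. Without that filter 35077 genes were tested and none was called by limma (smallest adjusted p 0.0900), although 17 members had an unadjusted p below 0.05. In the other alternatives 8 to 12 members fell. Itgb1 became 0.00869 (limma adjusted p = 0.913) and Cdh8 0.0264 (0.871) with median centring, with signs opposite to those reported, because that centring adds 0.05 to the BMP2 difference of all genes. Median centring called 13.95% of all genes higher and 9.04% lower, against 10.3% and 9.98% as reported. The genes called over the array were 4883 as reported, 9086 with normexp and 10388 with trend and robust errors. Itga1, Itga8, Itga2b, Itga9, Itgb7, Cdh2, Cdh3 and Cdh5 were called in every alternative except the one without a filter. Leaving out each array in turn leaves no residual degree of freedom and gives the differences within single pairs. No paired analysis was possible because each treatment had 1 array and no replicate number.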
